A study of Homo sapiens with 6 samples.

Results

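The replication-dependent histone cluster genes were followed across the RNA-sequencing libraries of human cardiomyocytes exposed to alcohol, with or without losartan. Members were all genes whose symbol began with HIST1H, HIST2H, HIST3H or HIST4H, and no expression value was used to choose them. This gave 53 of the 21134 genes listed, of which 4 encode H1, 16 H2A, 16 H2B, 9 H3 and 8 H4. By their RefSeq positions 36 members lie on chromosome 6, 16 on chromosome 1 and 1 on chromosome 12, and 2 of the H2B genes, HIST2H2BC and HIST2H2BA, are pseudogenes in RefSeq. A further 37 RefSeq genes with an older symbol of this form were not analysed here.

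The cells were labelled cardiomyocytes derived from human induced pluripotent stem cells (hiPSC-CMs), and the cell line was given as H9, which is known as an embryonic stem cell line. There were 2 libraries of untreated cells (control), 2 of cells exposed to 100 mM alcohol for 24 h (alcohol), and 2 of cells exposed for 24 h to 100 mM alcohol together with 1 µM losartan, a blocker of the angiotensin II type 1 receptor (co-treated). All groups shared this line, no library had losartan without alcohol, and the labels did not say whether the 2 libraries of a group came from separate cultures, so p-values measure only the spread between these samples. The expected counts of each library summed to 4898287 to 5051448. Summed FPKM (a level scaled to transcript length and library size) of 10 cardiomyocyte markers was 17990 to 25340, against 11.4 to 18.9 for 5 markers of pluripotent stem cells, of which 4 passed the expression filter, 383 to 490 for 6 fibroblast markers and 4.65 to 8.96 for 4 endothelial markers. The lowest cardiomyocyte sum was in alcohol replicate 2. Single markers differed in direction there: MYL7, MYL2, ACTN2 and TNNI3 were at their lowest, while MYH6, TNNI1 and NKX2-5 were at their highest. The part of this library's marker levels in the results below was not tested.

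Core histones H2A, H2B, H3 and H4 form the protein spool on which DNA is wound into nucleosomes, and linker histone H1 binds the DNA between them. Most of this protein is made in S phase from the clustered genes, which lack introns and whose messages classically end in a short stem-loop in place of a poly(A) tail. The stem-loop binding protein SLBP recognises this hairpin, and many of the clustered genes are known to give polyadenylated transcripts as well in cells that have stopped dividing. Replication-independent variants such as H3.3 and H2A.Z come from separate genes with ordinary polyadenylated messages and can be deposited outside S phase. The sources used here did not say whether polyadenylated RNA was selected, so the level of a clustered gene here is that of whatever form the library captured. In bulk RNA, fewer cells making a message and less message per cell cannot be told apart.

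The stem-loop is shown first because it defines this class of message. It was searched in GENCODE v29 transcripts (GRCh38) as a 6-base stem beginning with GG, a 4-base loop beginning with TT and the exact complement of the stem. A match was found in 28 of the 53 members (52.8%) and in 91 of 19618 other protein-coding genes (0.464%). All 28 lay 23 to 67 bases after the stop codon, with a median of 36. Just 4 forms occurred, printed here 5′ to 3′ with the loop in capitals and the position of an example gene:
HIST1H2AC, chr6:26124669-26124684, plus strand: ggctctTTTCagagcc
HIST1H2BD, chr6:26158587-26158602, plus strand: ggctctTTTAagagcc
HIST1H4H, chr6:26285131-26285146, minus strand: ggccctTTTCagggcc
HIST2H4A, chr1:149833032-149833047, plus strand: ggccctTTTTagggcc

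The form of HIST1H2AC was shared by 16 genes of types H2A, H2B and H3. The form of HIST1H2BD was found in 5 genes of types H2B and H3. Both forms with ggccct in the stem were found in H4 genes, 4 with the loop of HIST1H4H and 3 with that of HIST2H4A. Many of the remaining members had GENCODE models that stop at or near the end of the coding sequence, so the lack of a match says only that these letters are not in those models. For 21 of the 28 genes (75%) the longest GENCODE form holding the loop ran 100 bases or more past it. Those 21 genes took 65.0% of all histone counts, with a median of 1.49 FPKM per gene. Most of that share came from HIST2H2BE, with 41.3% of all histone counts, and HIST1H2AC, with 12.1%. The 7 genes with a loop and no form of that length took 9.20%, and the 25 without a match took 25.8%. Among these 25, HIST1H2BK alone took 15.4% of all histone counts. For some of the 21 genes the deposited length was shorter than the GENCODE form, such as 445 against 1534 bases for HIST1H2BG. Whether the counts of those genes include reads past the loop was not tested.

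Promoters are shown for the 3 members with the highest mean FPKM and, for contrast, for the H4 gene with the highest. Each is the 250 bases before the RefSeq start (GRCh38.p14), read 5′ to 3′ along the gene. Capitals mark ATTTGCAT (the octamer bound by OCT1, a known element of H2B promoters), CCAAT and TATAAA, or their reverse complements:
HIST1H2AC, chr6:26123922-26124171, plus strand: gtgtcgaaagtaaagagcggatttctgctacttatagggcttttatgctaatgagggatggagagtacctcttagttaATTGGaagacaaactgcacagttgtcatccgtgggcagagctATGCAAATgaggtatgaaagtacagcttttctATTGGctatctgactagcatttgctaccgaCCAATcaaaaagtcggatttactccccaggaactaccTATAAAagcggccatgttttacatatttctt
HIST1H2BK, chr6:27146859-27147108, minus strand: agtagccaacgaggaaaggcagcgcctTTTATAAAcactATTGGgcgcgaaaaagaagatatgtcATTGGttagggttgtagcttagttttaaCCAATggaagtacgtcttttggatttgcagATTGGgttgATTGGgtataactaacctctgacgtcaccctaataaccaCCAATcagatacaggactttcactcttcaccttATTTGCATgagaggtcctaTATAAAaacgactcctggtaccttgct
HIST2H2BE, chr1:149886683-149886932, minus strand: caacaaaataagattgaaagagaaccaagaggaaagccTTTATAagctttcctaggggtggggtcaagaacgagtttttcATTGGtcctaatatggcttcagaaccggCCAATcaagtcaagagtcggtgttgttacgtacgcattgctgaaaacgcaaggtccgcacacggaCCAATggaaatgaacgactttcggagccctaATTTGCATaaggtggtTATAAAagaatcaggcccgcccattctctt
HIST1H4H, chr6:26285535-26285784, minus strand: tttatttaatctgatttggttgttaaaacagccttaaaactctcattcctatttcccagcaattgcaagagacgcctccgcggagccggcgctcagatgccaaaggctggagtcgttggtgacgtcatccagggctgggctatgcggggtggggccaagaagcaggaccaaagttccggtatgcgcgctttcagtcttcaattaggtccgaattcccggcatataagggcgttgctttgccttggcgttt

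The first 3 carried each of the motifs, and HIST1H4H carried none of them. Of the 50 members with a promoter in the table, 22 held ATTTGCAT on either strand (44%), compared with 1.66% of all 27305 promoters of the same length. These were 11 of 14 H2B genes, 10 of 15 H2A genes and 1 of 9 H3 genes, with 0 of 8 H4 and 0 of 4 H1 genes. The H3 gene was HIST1H3D, whose promoter is the same stretch of bases as that of the H2A gene HIST1H2AD. That stretch was counted under both types, here and for CCAAT below, so the H3 octamer match is not separate from an H2A match. CCAAT was found in 43 of 50 (86%, against 33% of all promoters), in every H1, H2A, H2B and H3 gene searched but in only 1 of 8 H4 genes. TATAAA was found in 33 of 50 (66%, against 11.1%). A match is a run of letters and not evidence of binding, and neighbouring H2A and H2B genes share some of these bases.

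Expression of the family was low and uneven. All 53 genes together had 631 and 583 counts in control, 698 and 922 in alcohol, and 652 and 841 in the co-treated group. As a share of the library these were 0.0125% (exact 95% binomial interval 0.0115 to 0.0135) and 0.0116% (0.0107 to 0.0126) in control. In alcohol they were 0.0138% (0.0128 to 0.0149) and 0.0188% (0.0176 to 0.0201). In the co-treated group they were 0.0133% (0.0123 to 0.0144) and 0.0167% (0.0156 to 0.0179). Intervals and detection floors cover counting error only. The 2 alcohol libraries lay further apart than counting error allows, as did the 2 co-treated libraries, and replicate 1 of both groups overlapped the interval of control replicate 1.

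Of the 53 members, 22 were above 0 in all 6 libraries and 11 in a single library. No more than 3 counts were seen in any library for 28 members, and 39 stayed under 10 counts throughout. A count of 0 allowed a level of up to 0.594 to 0.612 CPM (counts scaled to the library total), the value of 3 counts. Among members with a count above 0, 43.3% to 62.9% of counts per library were not whole numbers, against 33.6% to 34.2% for all genes, as happens where reads that match several genes are divided between them. The copies HIST2H2AA3 and HIST2H2AA4, HIST2H4A and HIST2H4B, and HIST2H3A and HIST2H3C had identical counts in each library, so each pair is a single measurement.

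**Figure D1:**
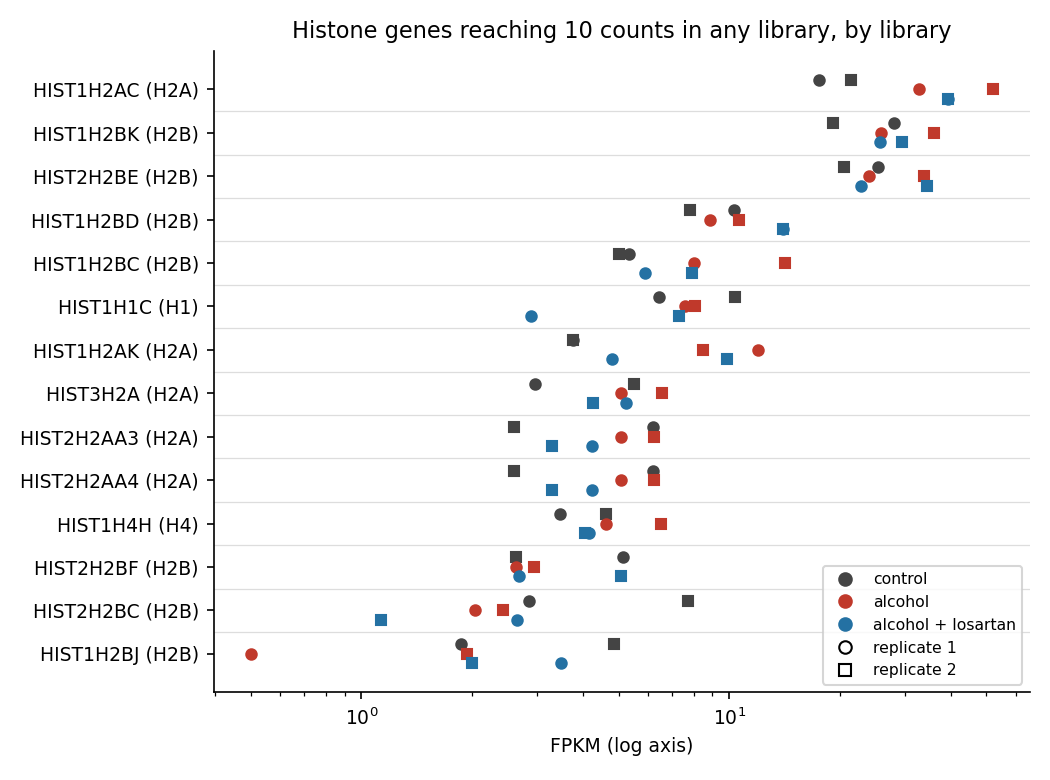
FPKM (x axis, log scale) in each of the 6 libraries for the 14 histone genes that reached 10 counts in any library, with circles for replicate 1 and squares for replicate 2. HIST1H2AC, HIST1H2BK and HIST2H2BE stand highest, and of these only HIST1H2AC has all 4 alcohol-exposed libraries to the right of both controls.

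H2B genes gave 70.0% of all histone counts and H2A genes 20.5%, while H4, H1 and H3 genes gave 3.95%, 3.65% and 1.90%. These are shares of reads without correction for length, and HIST2H2BE, with a deposited length of 2223 bases, alone gave 41.3%. HIST1H2BK gave 15.4% and HIST1H2AC, with a deposited length of 546 bases, 12.1%. The GENCODE form of HIST1H2AC that runs 1128 bases past the stem-loop is longer than the deposited length, and whether reads from that stretch are in its count was not tested. By genome cluster, HIST1 genes gave 47.4% of histone counts, HIST2 50.5%, HIST3 1.73% and HIST4 0.393%.

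Among H2A genes, HIST1H2AC had the highest level and showed the clearest separation of groups. Its FPKM was 17.5 and 21.4 in control, 32.9 and 52.0 in alcohol, and 39.4 and 39.4 in the co-treated libraries. Both alcohol-exposed groups lay above both controls, while the co-treated values lay between the 2 alcohol values. The counts behind these values were 45.8 to 132. HIST1H2AK had 3.76 and 3.76 FPKM in control, 11.96 and 8.48 in alcohol, and 4.79 and 9.88 in the co-treated group, on 8.15 to 26.0 counts. HIST3H2A had 2.97 and 5.52 FPKM in control, 5.08 and 6.55 in alcohol, and 5.24 and 4.26 in the co-treated group, with overlapping groups. The shared value of HIST2H2AA3 and HIST2H2AA4 was 6.20 and 2.60 FPKM in control, 5.08 and 6.25 in alcohol, and 4.24 and 3.29 in the co-treated group, so the 2 controls spanned nearly the whole range. The other 11 H2A genes averaged 0.0667 to 2.13 FPKM over the libraries.

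H2B was led by HIST1H2BK and HIST2H2BE, whose groups overlapped. HIST1H2BK had 28.0 and 19.2 FPKM in control, 25.8 and 36.0 in alcohol, and 25.6 and 29.5 in the co-treated group. HIST2H2BE had 25.4 and 20.5 FPKM in control, 24.0 and 33.9 in alcohol, and 22.9 and 34.5 in the co-treated group. For both genes replicate 2 was the lower control and the higher library in each exposed group. HIST1H2BD stood at 10.3 and 7.80 FPKM in control, 8.86 and 10.6 in alcohol, and 14.0 and 14.0 in the co-treated group. HIST1H2BC stood at 5.34 and 5.00 FPKM in control, 8.04 and 14.2 in alcohol, and 5.91 and 7.93 in the co-treated group. Both were higher in the co-treated group than in control without overlap. HIST2H2BF had 5.13 and 2.63 FPKM in control, 2.63 and 2.94 in alcohol, and 2.69 and 5.09 in the co-treated group. The pseudogene HIST2H2BC reached 21.5 counts in control replicate 2 and 3.15 to 7.97 elsewhere, and HIST1H2BJ reached 11.1 counts in the same library and 1.15 to 7.72 elsewhere.

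Of the H1, H3 and H4 genes only HIST1H1C passed the expression filter of the test, with 10 to 37 counts per library. HIST1H1C, which encodes the linker histone H1.2, was the single H1 gene above 2 counts, at 6.44 and 10.4 FPKM in control, 7.56 and 8.08 in alcohol, and 2.89 and 7.32 in the co-treated group. HIST1H1A, HIST1H1D and HIST1H1E had at most 2 counts in any library. The highest H3 gene was HIST1H3E, with 1.37 and 2.29 FPKM in control, 3.20 and 3.30 in alcohol, and 1.89 and 2.76 in the co-treated group, on 3 to 7 counts. HIST1H3H, HIST2H3D and HIST2H3C averaged 1.21, 0.807 and 0.267 FPKM. HIST1H3D had 6 and 4.31 counts in the alcohol libraries and 0 in the other 4. Its RefSeq model begins at the same base as that of the H2A gene HIST1H2AD, so reads at that start cannot be assigned with certainty, and it was too low to test.

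HIST1H4H was the highest H4 gene, at 3.46 and 4.63 FPKM in control, 4.61 and 6.53 in alcohol, and 4.16 and 4.06 in the co-treated group. The shared value of HIST2H4A and HIST2H4B was 2.98 and 4.07 FPKM in control, 4.34 and 5.02 in alcohol, and 3.91 and 4.90 in the co-treated group. HIST4H4, which lies alone on chromosome 12, averaged 1.49 FPKM, and HIST1H4K 0.623.

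Many H2A and H2B genes start head to head, on opposite strands a short distance apart. Partners differed widely in level in some pairs. The lower value could rest on few counts over the 6 libraries, 5.26 for HIST2H2AC and 3.63 for HIST3H2BB. Other pairs were too low to compare, such as HIST1H2AM and HIST1H2BO, with 4.13 and 1.09 counts. HIST1H2BC and HIST1H2AC start 246 bases apart, so that the HIST1H2AC promoter printed above spans the bases between both starts, and they averaged 7.74 and 33.8 FPKM. HIST2H2BE averaged 26.9 FPKM and HIST2H2AC, 236 bases away, 0.427. HIST1H2AK averaged 7.11 FPKM and HIST1H2BN, 194 bases away, 2.06. HIST3H2A and HIST3H2BB, 230 bases apart, averaged 4.94 and 0.290 FPKM. HIST1H2BJ and HIST1H2AG, 248 bases apart, were at like levels of 2.44 and 2.13 FPKM. The higher partner was the H2A gene in some pairs and the H2B gene in others. Only members with a promoter sequence were searched for partners. HIST1H2AH had none and was left out, though its RefSeq model spans chr6:27147106-27147562, near the HIST1H2BK start at 27146858. HIST1H2AH averaged 0.0817 FPKM and HIST1H2BK 27.3.

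**Figure D2:**
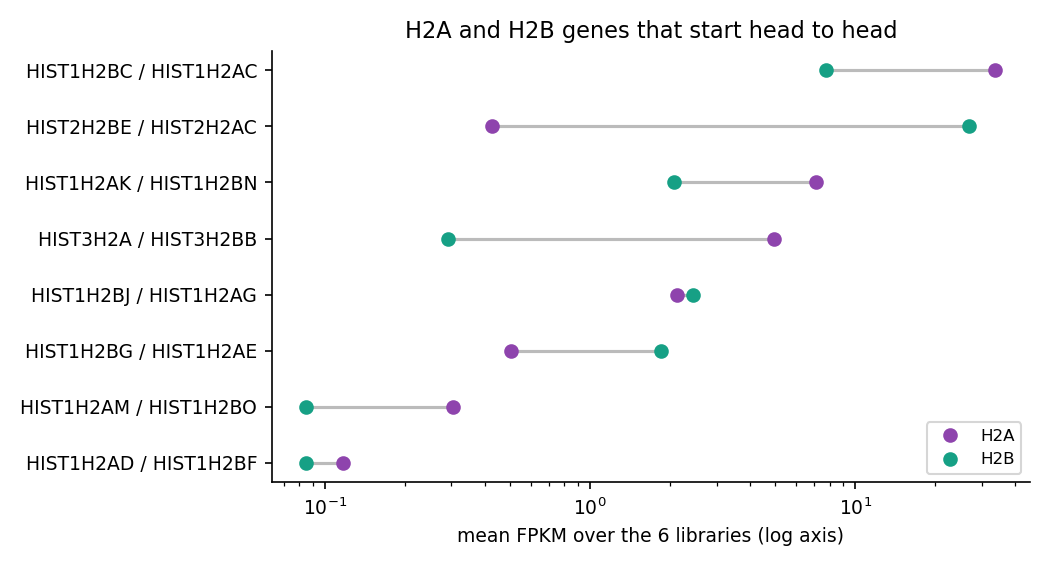
Mean FPKM over the 6 libraries (x axis, log scale) of 8 head-to-head pairs of an H2A and an H2B gene. Only members with a promoter sequence were searched, and a line joins partners. Of the pairs shown, HIST2H2BE and HIST2H2AC lie furthest apart, at 26.9 and 0.427 FPKM, and HIST1H2BJ and HIST1H2AG nearly coincide.

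Summed by type, H2A was the histone class with all exposed libraries above both controls by the widest margin. H2A genes together had 19.2 and 21.5 CPM in control, 31.9 and 43.4 in alcohol, and 31.0 and 30.8 in the co-treated group. The log2 ratio of group means was 0.89 for alcohol over control and 0.61 for co-treated over control. Without HIST1H2AC, an alternative chosen after seeing the data, these were 0.61 and 0.04. The summed FPKM of endothelial markers, most of it from KDR, was also higher in the exposed libraries. It was 4.92 and 4.65 in control, 6.16 and 7.43 in alcohol, and 7.97 and 8.96 in the co-treated group. Of the 4 markers 3 were tested, and KDR, the most abundant, had log2 fold changes against control of 0.57 in alcohol (SE 0.17, adjusted p 0.235 by edgeR) and 0.86 in the co-treated group (SE 0.17, adjusted p 0.0502 by edgeR). PECAM1 had log2 fold changes against control of -0.17 (SE 0.42) in alcohol and 0.08 (SE 0.41) in the co-treated group. For CDH5 these were 0.20 (SE 0.69) and 1.08 (SE 0.63). PECAM1 and CDH5 averaged 0.590 and 0.417 FPKM, and VWF was at 0 in co-treated replicate 1 and at most 0.11 FPKM elsewhere. Fibroblast markers had log2 fold changes above 0 for 5 of 6 genes in alcohol and 6 of 6 in the co-treated group, with medians of 0.18 and 0.14. The part of these cell types in the histone values was not tested. H2B genes had 95.0 and 78.3 CPM in control, 91.1 and 127 in alcohol, and 92.7 and 123 in the co-treated group, and the groups overlapped. H4 genes had 4.36 and 4.77 CPM in control, 6.14 and 7.95 in alcohol, and 5.10 and 5.97 in the co-treated group, which separates on 22 to 39 counts per library. H1 genes had 4.55 and 8.14, 5.35 and 5.71, and 2.04 and 5.77 CPM in the same order, and H3 genes 1.78 and 3.18, 3.76 and 3.53, and 2.25 and 1.99 CPM. With 2 libraries against 2 an exact permutation test cannot give a two-sided p below 0.333, so these sums carry no test.

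**Figure D3:**
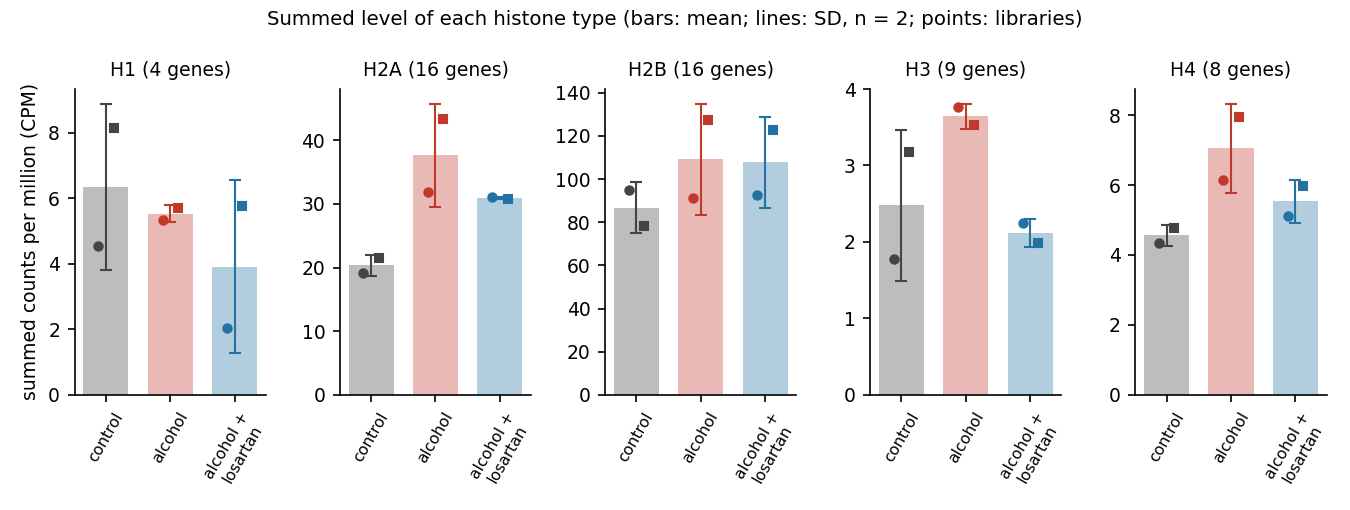
Summed CPM (y axis, a separate scale from 0 in each panel) of the genes of each histone type, with bars for the group mean, lines for the SD (n = 2) and points for libraries. H2A and H4 have all 4 exposed libraries above both controls, at 30.8 to 43.4 against 19.2 to 21.5 CPM for H2A, and the H1 and H2B groups overlap.

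The first comparison asked what 24 h of alcohol changed. Of the members, 11 passed the expression filter, all of them H1, H2A or H2B genes: HIST1H1C, HIST1H2AC, HIST1H2AK, HIST3H2A, HIST2H2AA3, HIST2H2AA4, HIST1H2BK, HIST2H2BE, HIST1H2BD, HIST1H2BC and HIST2H2BF. None reached an adjusted p under 0.05 (edgeR quasi-likelihood test over 14926 genes, Benjamini-Hochberg), where 10 of all genes did (0.067%). DESeq2 called 0 of the 3 members to which it gave an adjusted p, beside 0.741% of all genes. At an unadjusted p under 0.05 edgeR listed 3 members, HIST1H2AC, HIST1H2AK and HIST1H2BC, against 11% of all genes, and DESeq2 listed 2 of 11, against 5.96% of all genes.

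HIST1H2AC was 2.10-fold higher in alcohol (log2 fold change 1.07, SE 0.24, unadjusted p 0.000595, adjusted p 0.119 by edgeR). Its adjusted p ran from 0.0155 to 0.754 over the 14 alternatives. It passed the threshold only when alcohol replicate 1 was left out, at a log2 fold change of 1.34, and the change was 0.75 when alcohol replicate 2 was left out. HIST1H2AK had the largest log2 fold change of the 11, at 1.43 (SE 0.53, adjusted p 0.328 by edgeR). It passed the expression filter through the exposed libraries alone, with 8.18 and 8.15 counts in control against 26.0 and 17.9 in alcohol. Its place among the 11 thus rests on the libraries where it was high. HIST1H2BC stood at 1.07 (SE 0.47, adjusted p 0.423 by edgeR), with a value of 0.69 without alcohol replicate 2. The log2 fold changes of the most abundant H2B genes were smaller, 0.42 for HIST1H2BK (SE 0.23) and 0.29 for HIST2H2BE (SE 0.21). HIST1H2BK stood at 0.15 when control replicate 2 was left out and at 0.78 when control replicate 1 was. HIST2H2BE was at 0.06 when alcohol replicate 2 was left out and at 0.49 when alcohol replicate 1 was.

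On the CPM scale both alcohol libraries were above both controls for 4 members, HIST1H2AC, HIST1H2AK, HIST1H2BD and HIST1H2BC, against 25.2% of all genes. For HIST1H2BD this rests on 7.09 against 6.91 CPM, and its FPKM values overlapped. Both were below for 1 member, HIST2H2BF, against 18% of all genes, at 2.576 against 2.578 CPM for the nearest pair. Of the 11, 9 had a log2 fold change above 0, and the median of the 11 was 0.31, beside 49.4% above 0 and a median of -0.00326 for all genes tested. HIST2H2AA3 and HIST2H2AA4, counted as 2 of the 11, are a single measurement, and their shared value (SE 0.53) is this median. Leaving out alcohol replicate 2 gave a median of 0.17, and leaving out alcohol replicate 1 a median of 0.47. It was 0.29 over the 7 members with at least 10 counts in every library.

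The co-treated group was then compared with control, which shares its control libraries with the first comparison. Again edgeR called 0 members, against 54 of all genes (0.362%), and DESeq2 called 0 of the 5 members to which it gave an adjusted p, against 0.975% of all genes. At an unadjusted p under 0.05 there were 2 members, HIST1H2AC and HIST1H2BD, beside 12.6% of all genes, and DESeq2 listed 1 of 11, beside 6.91% of all genes. HIST1H2AC had a log2 fold change of 0.97 (SE 0.24, unadjusted p 0.00140, adjusted p 0.103 by edgeR). Its adjusted p ran from 0.0477 to 0.430 over the alternatives, and it passed the threshold only when alcohol replicate 1 was left out, at a log2 fold change that stayed at 0.97. HIST1H2BD had 0.67 (SE 0.28, adjusted p 0.344 by edgeR) and HIST1H2AK 0.92 (SE 0.55, adjusted p 0.527 by edgeR), the latter 0.30 without co-treated replicate 2.

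HIST1H1C lay on the other side, at a log2 fold change of -0.76 (SE 0.44, adjusted p 0.520 by edgeR), with overlapping libraries. Leaving out co-treated replicate 2, with 26 counts, gave -1.59, and leaving out replicate 1 of that group, with 10 counts, gave -0.23. Both co-treated libraries exceeded both controls for 4 members, HIST1H2AC, HIST1H2AK, HIST1H2BD and HIST1H2BC, beside 27.3% of all genes. For the nearest pair this rests on 2.41 against 2.18 CPM for HIST1H2BC and on 2.06 against 1.62 CPM for HIST1H2AK. HIST1H2AK had passed the expression filter through the exposed libraries alone. Both co-treated libraries were lower for 0 members, beside 16.4% of all genes. The median log2 fold change of the 11 was 0.28, with 7 above 0, beside -0.00165 and 49.8% for all genes. It was 0.03 without co-treated replicate 2 and 0.05 without alcohol replicate 1. With no filter on low counts, over all 53 members, it was -0.02, on the other side of 0.

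The comparison of the co-treated with the alcohol group addresses what losartan added. No member was called by edgeR or DESeq2, beside 0.0134% and 0.0335% of all genes, and 0 had an unadjusted p under 0.05 by either tool, beside 5.55% and 2.35% of all genes. HIST1H2AC differed by a log2 fold change of -0.10 (SE 0.22, adjusted p 0.972 by edgeR), and by 0.22 when alcohol replicate 2 was left out. Both co-treated libraries were higher for HIST1H2BD alone, with a log2 fold change of 0.42 (SE 0.28), beside 18.4% of all genes. Both were lower for 4 members, HIST1H2BC, HIST1H1C, HIST2H2AA3 and HIST2H2AA4, beside 14.4% of all genes, and the last 2 are a single measurement. For the nearest pair this rests on 3.24 against 3.28 CPM for HIST1H2BC and on 5.17 against 5.35 CPM for HIST1H1C. HIST1H2BC stood at -0.68 (SE 0.45), HIST1H1C at -0.61 (SE 0.45) and HIST2H2AA3 at -0.68 (SE 0.55). HIST1H2BC ran from -0.99 without alcohol replicate 1 to -0.30 without alcohol replicate 2, and HIST1H1C was -1.45 when co-treated replicate 2 was left out and -0.09 when replicate 1 of that group was. The median log2 fold change of the 11 was -0.29, with 2 above 0, beside 0.00227 and 50.3% for all genes. It was -0.09 without co-treated replicate 1, -0.15 without alcohol replicate 2 and -0.10 over the 7 members with at least 10 counts in every library.

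**Figure D4:**
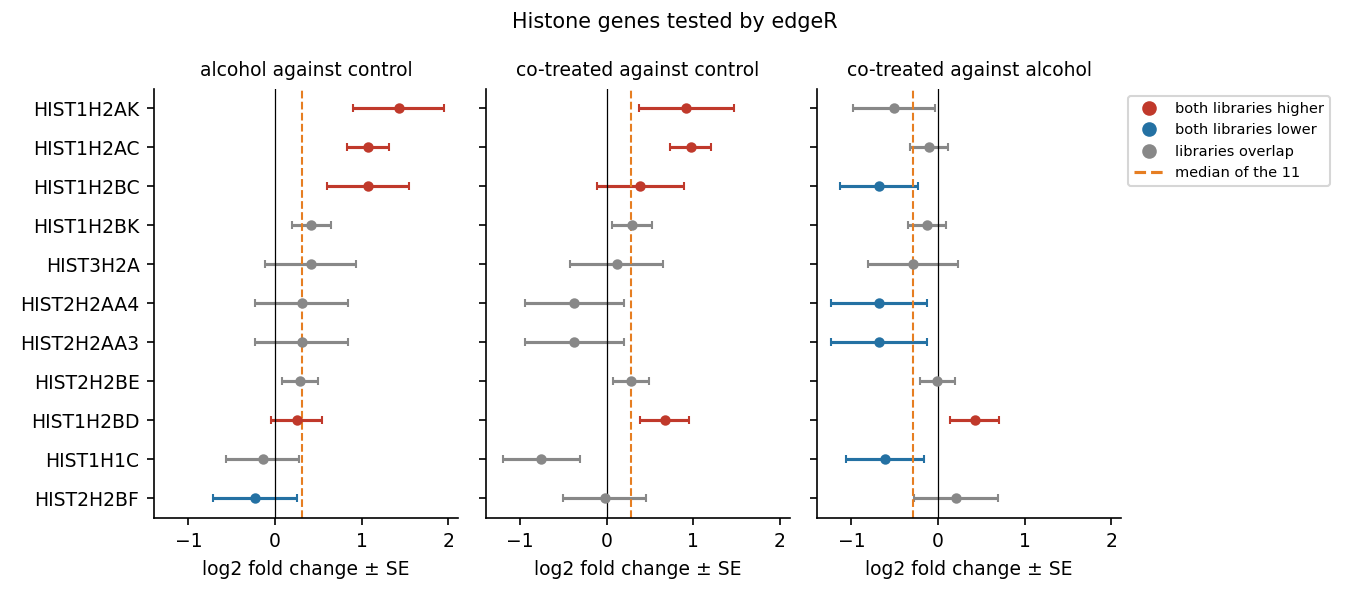
Log2 fold change (x axis) with its SE from edgeR for the 11 histone genes tested, in the 3 comparisons, coloured by whether the libraries of the groups overlap in CPM, with the median of the 11 as a dashed line. HIST1H2AC lies at 1.07 and 0.97 against control and at -0.10 between the exposed groups, and no gene reached an adjusted p under 0.05.

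Genes that work with histones were described beside the members. For H1, H2A and H3 the replication-independent variants listed had the larger summed FPKM. For H2B the clustered genes had, at 71.4 to 113 FPKM per library, since the single variant listed, H2BFM, averaged 0.727 FPKM. It is not known whether polyadenylated RNA was selected. The sums and shares therefore compare what the libraries captured and not the amounts of message in the cells. The H3.3 genes H3F3A and H3F3B summed to 148 to 196 FPKM per library. All 9 clustered H3 genes summed to 3.98 to 7.21 FPKM, or 2.27% to 4.65% of the captured H3 sum. For H1, clustered genes made up 1.5% to 5.08% of the sum with H1F0 and H1FX. For H2A, clustered genes made up 9.64% to 10.3% in control, 17.0% to 20.9% in alcohol and 15.2% to 16.1% in the co-treated group. Of 18 variants on the list 15 were analysed here and 12 were tested. None was called in any comparison, and their median log2 fold change was -0.12 for alcohol and -0.21 for co-treated against control. H2AFZ, which encodes H2A.Z, was at 143 and 187 FPKM in control and 126 and 119 in alcohol, a log2 fold change of -0.47 (SE 0.13, adjusted p 0.201 by edgeR). At an unadjusted p under 0.05, 2 of 12 were lower in alcohol and 3 of 12 in the co-treated group than in control, beside 5.78% and 6.37% of all genes, and 0 were higher.

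Factors for histone transcription and 3′ end processing had medians near 0. Of 15 listed genes 14 were tested, 0 were called, and the median log2 fold change was -0.05, -0.07 and 0.04 in the order of the comparisons above. SLBP was at 18.0 and 17.8 FPKM in control, 14.6 and 14.3 in alcohol, and 17.7 and 14.7 in the co-treated group, a log2 fold change of -0.35 in alcohol (SE 0.16, adjusted p 0.439 by edgeR). NPAT, the coactivator of histone genes, had a log2 fold change of 0.12 in alcohol (SE 0.18). All 18 genes on the list of histone chaperones and related factors were tested and 0 were called, with medians of -0.14, -0.04 and 0.10. ASF1B had the lowest value in alcohol, at -0.80 (SE 0.32, adjusted p 0.375 by edgeR). IPO4 had the smallest p of the list there, at -0.70 (SE 0.21, adjusted p 0.210 by edgeR). Against control, IPO4 stood at -0.61 (SE 0.20) in the co-treated group, where ASF1B stood at -0.27 (SE 0.31).

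The S phase list, whose genes are active when clustered histone genes are normally transcribed, had medians opposite in sign to those of the 11 histone members tested, which did not hold for co-treated against control over all 53 members without a filter. All 32 were tested and 0 were called. In alcohol against control 3 of 32 had a log2 fold change above 0, the median was -0.38, and 16 were lower at an unadjusted p under 0.05, beside 5.78% of all genes. PCNA, the sliding clamp of DNA polymerase, was at 58.9 and 63.8 FPKM in control, 48.5 and 42.5 in alcohol, and 57.9 and 55.8 in the co-treated group. Its log2 fold change in alcohol was -0.47 (SE 0.13, adjusted p 0.190 by edgeR). TYMS, which makes thymidylate, stood at -0.59 (SE 0.17) and RRM2, a subunit of ribonucleotide reductase, at -0.50 (SE 0.15). Co-treated against control, the median was -0.15 with 0 genes at an unadjusted p under 0.05. Co-treated against alcohol, 29 of 32 were above 0 with a median of 0.24, and 7 were higher at an unadjusted p under 0.05, beside 2.84% of all genes. The comparisons share libraries, and the difference between the lists was not tested.

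**Figure D5:**
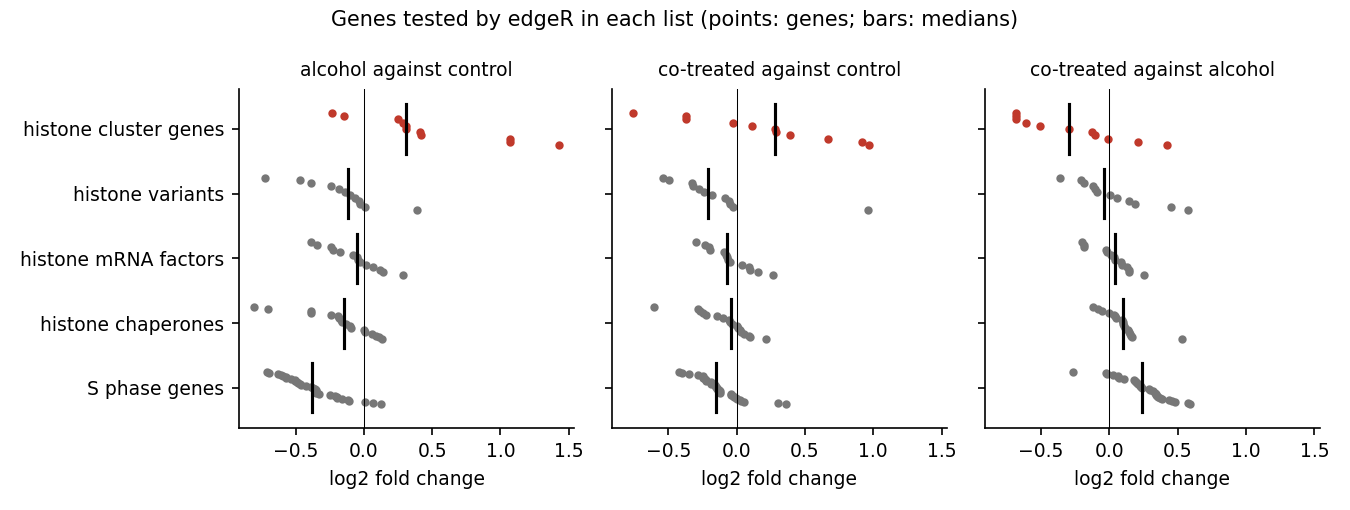
Log2 fold change (x axis) of each gene tested by edgeR in the histone cluster and in 4 lists of related genes, with a bar at each median. In alcohol against control the histone cluster genes have a median of 0.31 and the S phase genes of -0.38, and no gene shown was called.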

How the data were processed

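RNA from 6 libraries had been sequenced. The submitters' processing notes name HISAT2 2.0.4, Bowtie2 2.2.5, RSEM 1.2.12 and hg38, with no roles. The authors deposited RSEM-style expected counts and FPKM per gene and library in a table of all genes. Expected counts were rounded and tested with the edgeR 4.0.16 quasi-likelihood test (R 4.3.3, TMM scaling, filterByExpr, all 6 libraries in 1 fit, 2 per group). P-values were two-sided and Benjamini-Hochberg adjusted over 14926 genes with a threshold of 0.05, and SE was the absolute log2 fold change over the square root of F. CPM is the expected count scaled to the library total. The alternatives were DESeq2 1.42.0, its size factors in edgeR, no filter, at least 10 counts in every library, limma 3.58.1 on log2(FPKM + 1) and log2(FPKM + 0.1), a replicate block, only the 4 libraries compared, and each library left out. The fits were tested on simulated data with 200 changed genes. The changed genes were drawn only from those with higher mean counts, so power for histone genes of low counts was not measured. Replicates of a group differed by more than sampling noise (chi-square per degree of freedom 4.47 to 7.30).

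All 53 members matched RefSeq by gene number, and 50 had a promoter (GRCh38.p14). Stem-loops came from GENCODE v29. The genes named were the 5 with the highest mean FPKM of each histone type and, per comparison, the 5 with the smallest p among those whose groups did not overlap. Other genes named, including those of the lists, were picked after their values were seen. The members, lists and tests were chosen with earlier results of these data known.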

Additional observations from a re-analysis of the deposited data

How the results depend on the processing

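With 4898287 to 5051448 counts per library and 39 of 53 members under 10 counts throughout, most members could not be tested, and 2 libraries per group limit the rest. The number of all genes called moved with most settings and the histone genes called with few. In alcohol against control edgeR called 10 genes, DESeq2 72, the fit without a filter 2, the one with at least 10 counts in every library 26, limma 0 with a pseudocount of 1 and 2 with 0.1, and the 4 libraries alone 3. In co-treated against control edgeR called 54, DESeq2 123, no filter 15, limma 2 and 3, and the 4 libraries alone 158. In co-treated against alcohol edgeR called 2, DESeq2 5, no filter 1, at least 10 counts 0, limma with a pseudocount of 1 1 gene, and the 4 libraries alone 4. Adding the replicate block gave 48, 136 and 5 genes and 0 histone genes. Same-numbered libraries did not deviate together (correlations 0.101, -0.0183 and 0.0426 across genes), so the numbers were not taken as pairs.

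Leaving out each library gave 1 to 220, 2 to 184 and 1 to 24 genes in the order above. The highest of each came without alcohol replicate 1, and the lowest without alcohol replicate 2, co-treated replicate 2 and co-treated replicate 2. Histone genes called ran from 0 to 1 in each comparison with control, the 1 being HIST1H2AC without alcohol replicate 1. The median log2 fold change of the histone genes in alcohol was 0.17 to 0.47 over these, and 0.48 by limma with a pseudocount of 0.1. In co-treated against control it was 0.03 to 0.35 with a library left out and -0.017 with no filter, and in co-treated against alcohol -0.41 to -0.09. The cause of these shifts was not tested.

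Single genes changed direction as follows. HIST2H2BF in co-treated against control was 0.0071 and 0.0101 by limma with pseudocounts of 1 and 0.1, and -0.41 to 0.28 with a library left out. With a library left out, alcohol against control ran from -0.42 to 0.24 for HIST1H1C and from -0.16 to 1.04 for HIST2H2AA3 and HIST2H2AA4. Co-treated against control ran from -0.25 to 0.61 for HIST3H2A, from -0.86 to 0.35 for HIST2H2AA3 and HIST2H2AA4, and from -0.066 to 0.56 for HIST2H2BE. Co-treated against alcohol ran from -0.38 to 0.22 for HIST1H2AC, from -0.31 to 0.062 for HIST1H2BK, from -0.36 to 0.27 for HIST2H2BE and from -0.18 to 0.51 for HIST2H2BF. None of these was called under any of the settings named in this paragraph.

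The log2 ratios of summed levels moved by more than the replicate spread in some settings. Alcohol over control ran from -0.56 to 0.28 for H1, 0.65 to 1.09 for H2A, 0.20 to 1.03 for H3, 0.43 to 0.80 for H4 and 0.20 to 0.64 for all members with a library left out. Co-treated over control ran from -1.64 to -0.14 for H1, 0.53 to 0.69 for H2A, -0.59 to 0.25 for H3 and 0.15 to 0.48 for all members. Co-treated over alcohol ran from -1.44 to 0.062 for H1 and -0.49 to -0.044 for H2A. Without HIST1H2AC the H2A ratios were 0.61, 0.038 and -0.57, and summed FPKM gave -0.58 for H3 in co-treated over alcohol. Of 436 values for single histone genes 417 kept their direction and side of the threshold, and of 240 other values 185 stayed within the limits set for them.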
